A study of Homo sapiens with 4 samples.

Results

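The mitochondrial ribosomal protein mRNAs described here were the 74 genes of the array whose platform symbol starts with MRPL or MRPS followed by a digit, of 15870 named genes on an array of 18603 probe sets. By symbol, 47 belong to the large subunit (MRPL) and 27 to the small subunit (MRPS). Each had 1 probe set, so none had to be chosen among several. All 74 are protein-coding in the RefSeq annotation, and they lie on 21 chromosomes. The RNA came from MDA-MB-231, an established human breast carcinoma cell line. The 2 conditions had 2 arrays each: cells labelled shDROSHA, which carry a short hairpin RNA against DROSHA, the nuclear enzyme that cuts primary microRNA transcripts, and control cells labelled shNC. The series' own design statement speaks instead of mock transfection, and which name describes the control was not settled here. Both groups share the line and its growth medium, and the replicates are called biological in the titles. The sources used here do not say whether the cells were a pool or a clone, or how long after transfection RNA was taken.

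Mitochondria keep a ribosome of their own, which translates only the few proteins encoded in mitochondrial DNA, all of them subunits of the respiratory chain and ATP synthase. Its RNAs come from mitochondrial DNA, whereas every one of its proteins is encoded in the nucleus, made in the cytosol and imported. Many of these proteins descend from bacterial ribosomal proteins and keep their numbers, and the others were added in mitochondria.

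The values are log2 signals per probe set. DROSHA itself stood at 8.71 and 8.74 in the shDROSHA arrays, against 9.66 and 9.76 in the shNC arrays (log2 fold change -0.99, SE 0.073, limma adjusted p = 3.89e-06, or 0.0843 with a constant prior variance). The 5 markers fixed for the line (VIM, CD44, CAV1, AXL and MSN) had signals of 9.45 to 12.09, and the lowest of them, CD44, ranked above 84.8% of all probe sets. The markers of luminal epithelium, leukocytes, endothelium, red cells and liver that had a probe set did not exceed 7.20, below the array's median of 7.22. Levels are those of bulk cultures, in which fewer cells of a kind and less RNA per cell cannot be told apart.

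Few of the 74 mRNAs differed between the conditions, and those that did differed by little. In limma, with a prior variance that follows signal level and Benjamini-Hochberg adjustment over all 18603 probe sets, 4 members rose (MRPL3, MRPL42, MRPL39 and MRPL1), 1 fell (MRPS23) and 69 did not pass an adjusted p of 0.05. That is 6.76% of the members, near the 6.41% of all probe sets that passed. All but 2 members had a mean signal at or above the median of the array, and among probe sets that bright 11.0% passed, 5.64% higher and 5.31% lower in shDROSHA. The count is thus no larger than the background, and it is not a result about the family. Among all probe sets 3.12% rose and 3.28% fell, with 581 higher and 611 lower calls, and the split was 747 higher and 448 lower with each array centred on its median. With 1 constant prior variance for all probe sets, 0 members passed, against 0.00538% of all probe sets, and the lowest adjusted p among members was 0.256. In that constant fit 8 members (10.8%) had an unadjusted p under 0.05, against 14.9% of all probe sets and 15.7% of the brighter ones. With the signal trend 19 members (25.7%) had an unadjusted p under 0.05, against 19.3% of all probe sets and 29.2% of the brighter ones.

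The differences were small in size. The largest rise was 1.27-fold (MRPL39) and the largest decrease in level was 1.28-fold (MRPS31, not past the threshold). For 73 of the 74 members the 95% interval of the log2 fold change lay within a 1.5-fold difference in either direction, as it did for 15097 of all 18603 probe sets and 8785 of the 9302 at or above the median signal. The exception was MRPS31, whose interval ran from -0.69 to -0.02. Differences under 0.1 log2 units were measured for 42 members, against 7935 of all probe sets and 4336 of the brighter ones. These intervals are those of single genes in the fit with the signal trend and are not adjusted for the number of genes.

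**Figure D1:**
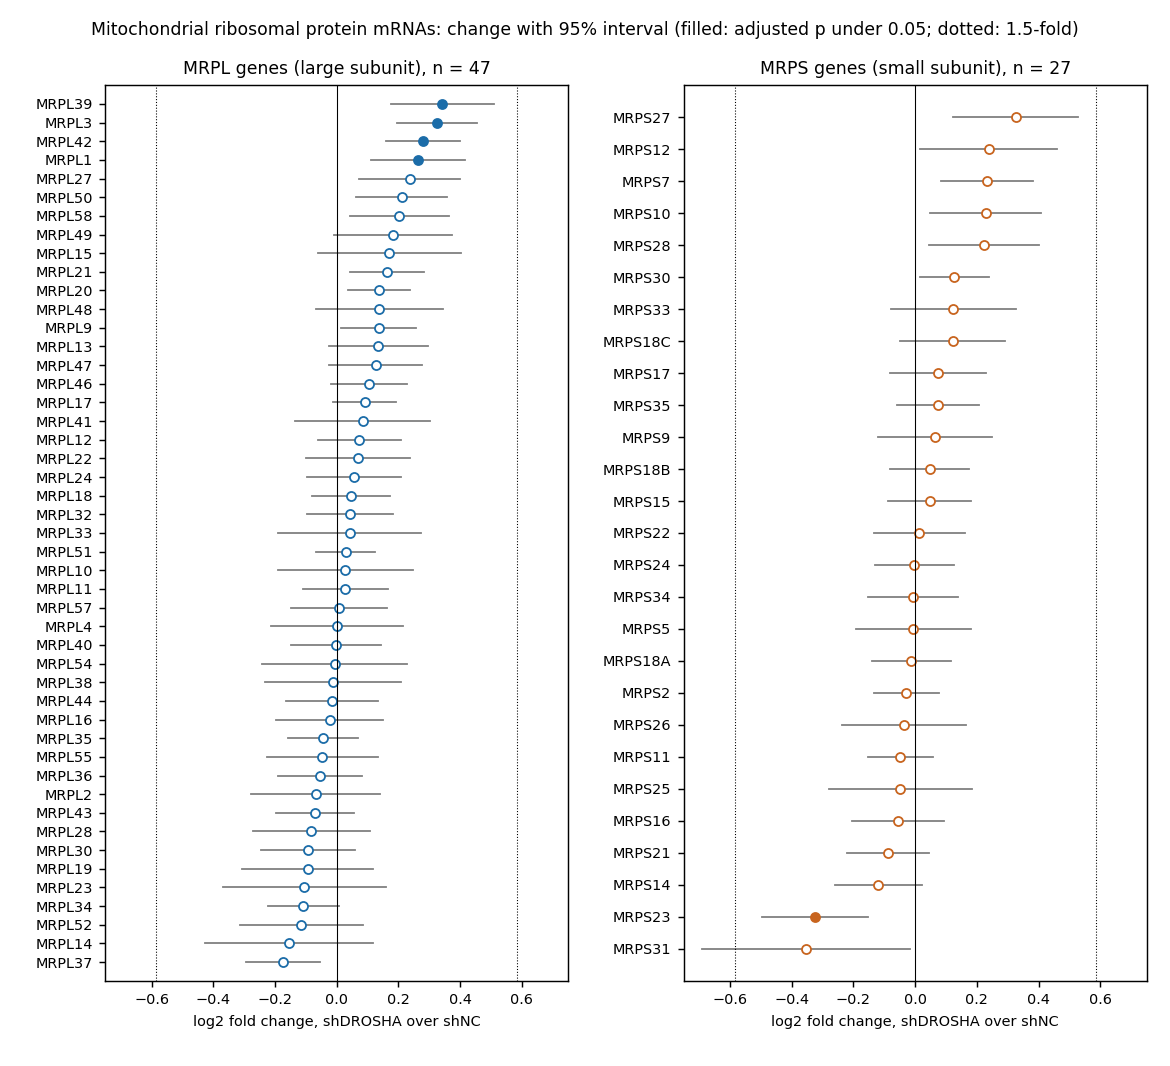
Log2 fold change of each of the 74 genes, shDROSHA over shNC (points), with its 95% interval (bars), for 47 MRPL genes on the left and 27 MRPS genes on the right. Filled points passed an adjusted p of 0.05, 4 of them MRPL genes above 0 and 1 an MRPS gene below 0, and the interval of MRPS31 is the only one to cross a dotted line, which marks 1.5-fold.

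The large-subunit mRNAs that rose code for proteins of both kinds, bacterial in origin and added in mitochondria. MRPL3, the counterpart of bacterial ribosomal protein L3, had log2 signals of 10.87 and 10.91 in the shDROSHA arrays, against 10.47 and 10.65 in the shNC arrays. Both shDROSHA arrays lay above both shNC arrays, and the log2 fold change was 0.32 (SE 0.06, adjusted p = 0.00522), or 1.25-fold. Its promoter is shown because it holds the family's most frequent motif among those searched, described further on. The sequence is RefSeq's for GRCh38.p14, 250 bases before to 50 after the annotated start, 5′ to 3′ on the gene's strand, with the ETS motif CCGGAAG in capitals.
MRPL3 chr3:131502922-131503221 (- strand): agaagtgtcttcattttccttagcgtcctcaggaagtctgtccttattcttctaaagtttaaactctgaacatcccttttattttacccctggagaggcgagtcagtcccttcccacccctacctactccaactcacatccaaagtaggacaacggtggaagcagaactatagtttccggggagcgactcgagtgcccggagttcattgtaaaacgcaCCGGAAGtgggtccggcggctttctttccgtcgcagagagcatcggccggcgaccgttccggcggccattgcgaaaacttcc

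MRPL42, a large-subunit protein with no bacterial counterpart, stood at 10.88 and 10.94 in shDROSHA, against 10.56 and 10.70 in shNC. The arrays did not overlap, and it rose by 0.28 on the log2 scale (SE 0.056, adjusted p = 0.00839). RefSeq names 6 pseudogenes after MRPL42, more than after the other 4 called members, of which MRPL3 and MRPS23 have 1 each and MRPL39 and MRPL1 have 0. Whether the array's probes tell such copies apart was not tested. Its promoter carries the letters AAGATGGCG, called YY1-like here and given in capitals.
MRPL42 chr12:93467264-93467563 (+ strand): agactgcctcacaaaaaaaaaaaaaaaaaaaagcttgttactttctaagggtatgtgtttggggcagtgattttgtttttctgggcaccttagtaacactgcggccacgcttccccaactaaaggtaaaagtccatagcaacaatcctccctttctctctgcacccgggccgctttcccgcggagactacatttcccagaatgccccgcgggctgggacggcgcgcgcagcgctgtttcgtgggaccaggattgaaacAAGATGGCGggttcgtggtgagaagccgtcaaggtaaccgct

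MRPL39, another protein without a bacterial counterpart, which lies near the mouth of the exit tunnel through which the new chain leaves, had 9.36 and 9.53 in shDROSHA, against 9.14 and 9.06 in shNC. It rose by 0.34 (SE 0.078, adjusted p = 0.0175). MRPL1, the counterpart of bacterial L1 on the mobile L1 stalk, had 9.62 and 9.63 in shDROSHA, against 9.29 and 9.43 in shNC, and rose by 0.26 (SE 0.071, adjusted p = 0.0406). For both genes the shDROSHA arrays lay above the shNC arrays without overlap.

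Each of these calls was lost when 1 particular array was left out, and also with a constant prior variance (adjusted p from 0.256 to 0.296 for these 4). Without shNC replicate 1 the adjusted p was 0.0698 for MRPL3 (log2 fold change 0.23), 0.111 for MRPL42 (0.21) and 0.334 for MRPL1 (0.20). MRPL39 was not called without shDROSHA replicate 2 (0.26, adjusted p = 0.073) or without shNC replicate 2 (0.30, adjusted p = 0.0999). Without shNC replicate 1, MRPL39 and MRPS23 were the 2 members called.

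MRPS23, a small-subunit protein specific to mitochondria, was the member that fell. It had 8.88 and 8.98 in the shDROSHA arrays, against 9.18 and 9.33 in the shNC arrays, with no overlap. The log2 fold change was -0.33 (SE 0.08, adjusted p = 0.0256), or 1.25-fold lower, and the call was lost without shNC replicate 2 (-0.25, adjusted p = 0.21) and with a constant prior variance (adjusted p = 0.264). The promoter of MRPS23 also holds an ETS motif, here as its reverse complement CTTCCGG. Whether the motif bears on the direction of a difference was not tested.
MRPS23 chr17:57849995-57850294 (- strand): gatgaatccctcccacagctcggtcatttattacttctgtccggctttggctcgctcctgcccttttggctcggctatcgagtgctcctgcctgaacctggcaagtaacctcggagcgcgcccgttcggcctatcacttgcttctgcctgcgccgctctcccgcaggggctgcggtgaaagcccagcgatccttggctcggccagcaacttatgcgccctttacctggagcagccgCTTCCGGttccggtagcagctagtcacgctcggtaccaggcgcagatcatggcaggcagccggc

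**Figure D2:**
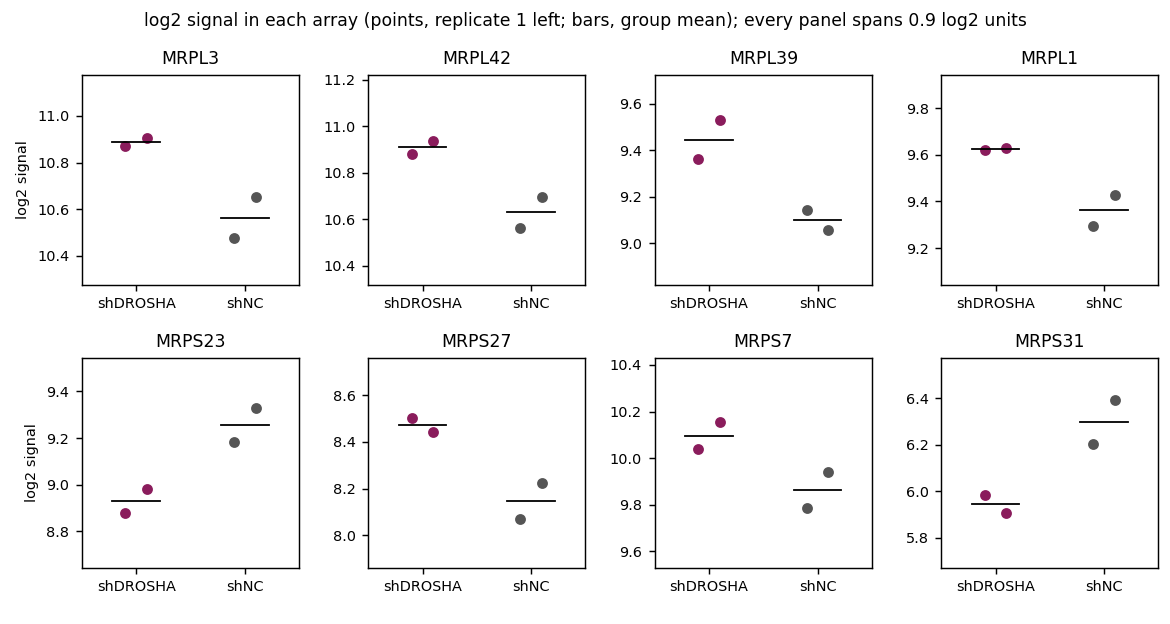
Log2 signal of 8 members in each array (points, with replicate 1 on the left) and the mean of each group (bars), shDROSHA left of shNC; every panel spans 0.9 log2 units. The first 5 panels are the called members, of which MRPS23 alone is lower in shDROSHA, and the other 3 (MRPS27, MRPS7 and MRPS31) are the small-subunit genes with the next smallest p or the lowest log2 fold change.

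Among the remaining small-subunit genes, 2 lay close to the threshold. MRPS27, a mitochondria-specific protein with pentatricopeptide repeats, had 8.50 and 8.44 in shDROSHA, against 8.07 and 8.23 in shNC, a log2 fold change of 0.33 (SE 0.094, adjusted p = 0.0572). It passed in 6 of the 13 settings run. MRPS7, the counterpart of bacterial S7, which helps to organise the head of the small subunit, had 10.04 and 10.15 in shDROSHA, against 9.79 and 9.94 in shNC (0.23, SE 0.069, adjusted p = 0.0634), and passed in 5 of the 13. Both had arrays that did not overlap, and neither is called here.

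MRPS10 and MRPS12, the counterparts of bacterial S10 and of the decoding-centre protein S12, were measured at log2 fold changes of 0.23 (SE 0.084, adjusted p = 0.14) and 0.24 (SE 0.104, adjusted p = 0.22). MRPS31, a mitochondria-specific protein and the dimmest member, had 5.98 and 5.91 in shDROSHA, against 6.20 and 6.39 in shNC. Its log2 fold change of -0.35 was the lowest of the family, with the largest SE (0.157, adjusted p = 0.231), and 3 pseudogenes are named after it. In the large subunit the lowest values were those of MRPL37 (-0.17, SE 0.056, adjusted p = 0.0865), a mitochondria-specific protein, and of MRPL14 (-0.15, SE 0.126, adjusted p = 0.574), the counterpart of bacterial L14. The MRPL14 value turned to 0.03 without shDROSHA replicate 2, the array in which it stood at 7.42 against 7.73 to 7.78 in the others. MRPL51, the brightest member, differed by 0.03 (95% interval -0.07 to 0.12), and the value was -0.01 when quantiles were normalized again.

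Large and small subunits were then set against each other, which asks whether the mRNAs of one subunit moved apart from those of the other. The median log2 fold change was 0.042 over the 47 large-subunit genes and 0.0135 over the 27 small-subunit genes, beside 0.000865 over all probe sets. The middle of the distribution, from the lower to the upper quartile, ran from -0.05 to 0.14 in the large subunit and from -0.04 to 0.12 in the small subunit, so the subunits overlapped nearly throughout. Of the large-subunit genes 29 were higher and 18 lower in shDROSHA, and of the small-subunit genes 14 were higher and 13 lower. The medians differed by 0.0286. Because the genes of a subunit share the same 4 arrays and 2 arrays against 2 cannot give a two-sided exact permutation p below 0.333, no test was made of this difference.

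The values by array show how small it was. As the median over genes of the deviation from each gene's own mean, the large subunit stood at 0.044 and 0.0069 in the shDROSHA arrays, against -0.0298 and -0.0155 in the shNC arrays. The small subunit stood at 0.0127 and 0.0015 in shDROSHA, against -0.0217 and -0.0125 in shNC. Large minus small was 0.0314 and 0.0054 in shDROSHA, against -0.0081 and -0.003 in shNC, furthest from 0 in shDROSHA replicate 1. Without that array the difference of the median log2 fold changes was 0.0034, and without shNC replicate 1 it was 0.0099. With all arrays but without members below the median signal it was 0.0124, and its source was not tested.

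**Figure D3:**
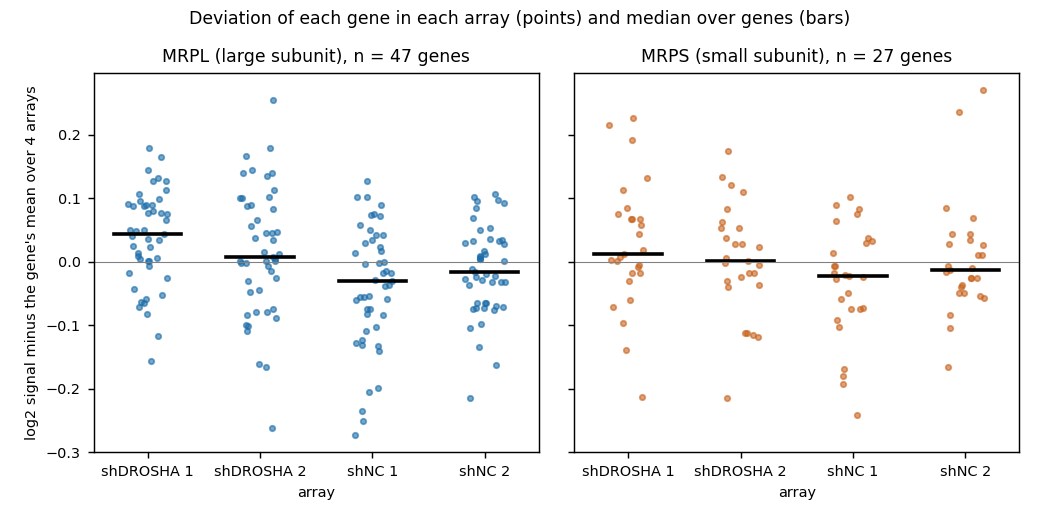
Deviation of each gene's log2 signal from its own mean over the 4 arrays (points), by array, with the median over genes (bars), for 47 MRPL genes on the left and 27 MRPS genes on the right. The medians of the shDROSHA arrays lie at or just above 0 and those of the shNC arrays below 0 in both panels, within a cloud of single genes several times wider.

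Over the whole family 43 of 74 genes (58.1%) were higher in shDROSHA, against 50.2% of all probe sets and 49.3% of those at or above the median signal. Groups did not overlap at 40 members (54.1%), against 47.8% of all probe sets and 56.7% of the brighter ones. Of these, 27 (36.5%) were higher in shDROSHA, against 23.4% of all probe sets and 27.6% of the brighter ones. The other 13 (17.6%) were lower, against 24.4% and 29.1%. shNC replicate 1 was the lowest of the 4 arrays at 30 members (40.5%), against 25.6% of all probe sets. shNC replicate 2 was the lowest at 12 (16.2%), against 23.2% of all probe sets. Without shNC replicate 1, 44 members were higher, against 9336 of all 18603 probe sets, and the family's median was 0.0183. The part of shNC replicate 1 in the lean towards higher values was not tested. The median over all 74 members, 0.0355, was 0.058 without shDROSHA replicate 2 and 0.0214 when quantiles were normalized again. It was 0.0686 with each array centred on its median, where that of all probe sets was 0.0339.

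**Figure D4:**
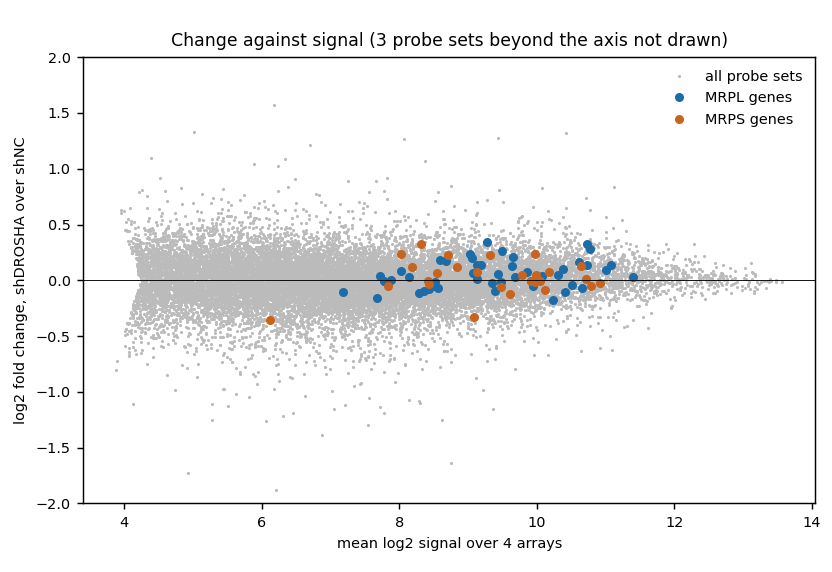
Log2 fold change, shDROSHA over shNC, against mean log2 signal over the 4 arrays, for all 18603 probe sets (grey; 3 beyond the axis are not drawn) and for the MRPL and MRPS genes (colours). The 74 genes lie inside the cloud of probe sets of like signal, and all but 2 of them lie right of the median signal of 7.22.

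Some symbols do not tell the subunit. MRPS30 and MRPS18A are proteins of the large subunit in spite of their names. MRPS30, which sits in the central protuberance, where both subunits meet above the transfer RNAs, had 10.69 and 10.73 in shDROSHA, against 10.55 and 10.61 in shNC (0.13, SE 0.052, adjusted p = 0.186). MRPS18A differed by -0.01 (95% interval -0.14 to 0.11), with a sign that turned (0.02) with each array centred on its median. Its paralogs in the small subunit, MRPS18B and MRPS18C, differed by 0.05 (SE 0.06) and 0.12 (SE 0.079), and none of these paralogs passed. With these proteins placed where they sit, the medians were 0.042 over 49 large-subunit genes and 0.0135 over 25 small-subunit genes, as before.

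MRPS18A and MRPS18B were counted here as specific to mitochondria, although their paralog MRPS18C was counted with the bacterial counterparts. By this classing, the 45 members with a bacterial counterpart held 2 that rose and 0 that fell (4.44% called, median 0.0427). The 29 specific to mitochondria held 2 that rose and 1 that fell (10.3% called, median 0.0135). Of all probe sets 6.41% were called, and 11.0% of those at or above the median signal, where 44 of the 45 and 28 of the 29 lie. The difference between these 2 classes was not tested. By place, the 9 members classed here in the central protuberance, MRPL58 not among them, had a median of 0.047 and 0 calls. MRPL27, the counterpart of bacterial L27 near the catalytic centre, was the highest of the 9 at 0.24 (adjusted p = 0.086). The 7 members at the exit of the tunnel had a median of 0.069 and 1 call, MRPL39 (14.3%, against 6.41% of all probe sets and 11.0% of the brighter ones). The 4 members of the stalk that recruits translation factors (MRPL10, MRPL11, MRPL12 and MRPL54) ranged from -0.0063 to 0.07, the least spread of these groups. MRPL12, the stalk protein that also binds the mitochondrial RNA polymerase, stood at 9.93 and 9.86 in shDROSHA, against 9.80 and 9.84 in shNC (0.07, SE 0.062, adjusted p = 0.594). MRPL58, a large-subunit protein that also acts as a peptidyl-tRNA hydrolase, which frees stalled chains, had 9.15 and 9.17 in shDROSHA, against 8.92 and 8.98 in shNC (0.20, SE 0.074, adjusted p = 0.133). MRPL57 had a log2 fold change of 0.01 (SE 0.073), whose sign depended on the array left out (-0.03 to 0.04).

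The mitochondrial ribosome holds further proteins whose symbols do not start with MRP, and the 4 of these that were measured did not pass either. DAP3, a GTP-binding protein of the small subunit first named for cell death, had 9.74 and 9.86 in shDROSHA, against 9.57 and 9.64 in shNC (0.19, SE 0.068, adjusted p = 0.123). GADD45GIP1, of the large subunit, had 8.78 and 8.85 in shDROSHA, against 8.94 and 9.03 in shNC (-0.17, SE 0.079, adjusted p = 0.258). PTCD3 and CHCHD1, of the small subunit, differed by -0.04 and 0.01, each with a sign that depended on the array left out (-0.12 to 0.03 and -0.03 to 0.06).

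Some motifs were found in a larger share of the family's promoters than of all promoters, and the choice of genes did not use them. RefSeq promoters of 300 bases were matched for 66 of the 74 genes and for 15843 protein-coding genes in all, 1 per gene, and each motif was sought on both strands. The ETS motif CCGGAAG, the core bound by factors such as GABPA, was found in 28 of 66 members (42.4%), against 14.2% of all. AAGATGGCG, a form of the YY1 motif, was found in 13 (19.7%), against 2.74% of all. TATAAA was found in 2 (3.03%), against 9.63%, and the palindromic NRF1 motif in 1 (1.52%), against 1.75%. No motif overlapped another in the sequences printed. Members with the ETS motif had a median log2 fold change of -0.0045 and those without it 0.047, whereas members with and without AAGATGGCG had 0.0469 and 0.028. These are descriptions of letters in a window and not of bound sites, and the promoters of the background were not matched for signal.

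Among general regulators of nuclear genes for mitochondrial proteins and of mitochondrial DNA, 1 passed the test. PPARGC1A, a coactivator of mitochondrial biogenesis, had 7.35 and 7.19 in shDROSHA, against 7.85 and 7.78 in shNC, close to the array's median signal, and fell by 0.54 on the log2 scale (SE 0.114, adjusted p = 0.0109; 0.104 without shNC replicate 1). NRF1 and GABPA, transcription factors of nuclear genes for mitochondrial proteins, differed by -0.01 (SE 0.1) and 0.02 (SE 0.105), with signs that depended on the array left out (-0.13 to 0.11 and -0.08 to 0.13). The sign of NRF1 also turned with each array centred on its median (0.02) and when quantiles were normalized again (0.02). PPARGC1B (0.12, SE 0.143), MYC (0.09, SE 0.09) and TFAM (0.05, SE 0.043), the factor that packages mitochondrial DNA, did not pass. Of the 13 measured genes of mitochondrial DNA transcription and its regulators, 0 rose and 1 fell. That is 7.69% called, against 6.41% of all probe sets and 11.0% of the brighter ones.

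Genes that build or serve the mitochondrial ribosome were counted in the same way. Of 23 assembly and ribosomal RNA modification factors 0 were called, against 6.41% of all probe sets and 11.0% of the brighter ones, where 22 of them lie. Their median was -0.0274, or 0.0057 with centred arrays and 0.0011 without shNC replicate 2. In limma 1 (4.35%) had an unadjusted p under 0.05, against 19.3% of all probe sets and 29.2% of the brighter ones. In the constant fit 0 did, against 14.9% and 15.7%. The smallest p was that of RPUSD3, a pseudouridine synthase relative (-0.15, adjusted p = 0.221). Of 15 translation factors 0 were called (median 0.0241), against the same 6.41% and 11.0%, and all 15 lie at or above the median signal. In limma 2 of them (13.3%) had an unadjusted p under 0.05, against 19.3% of all probe sets and 29.2% of the brighter ones. In the constant fit 0 of them did, against 14.9% and 15.7%. The median of the translation factors ran from 0.0011 without shDROSHA replicate 2 to 0.0684 without shNC replicate 2. MTIF2, the initiation factor, had 10.32 and 10.44 in shDROSHA, against 10.10 and 10.21 in shNC (0.22, SE 0.064, adjusted p = 0.0518). It passed in 8 of the 12 alternatives, with adjusted p from 0.00237 to 0.361 over all 12, and the elongation factor GFM1 passed in 1, without shDROSHA replicate 2 (adjusted p = 0.0459). Of 18 mitochondrial aminoacyl-tRNA synthetases and related amidotransferase subunits 11.1% were called, against 6.41% of all probe sets and 11.0% of the brighter ones. WARS2, which charges tryptophan, rose by 0.32 (adjusted p = 0.0131). IARS2, which charges isoleucine, fell by 0.30 (adjusted p = 0.0415, or 0.0777 with each array centred on its median). WARS2 was not called without shNC replicate 1 (adjusted p = 0.0642) or 2 (0.0692), and IARS2 was not called without shDROSHA replicate 2 (0.201) or shNC replicate 2 (0.209).

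The nuclear-encoded subunits of oxidative phosphorylation, which assemble with the products of the mitochondrial ribosome, had a median of -0.0773, on the other side of 0 from the family's 0.0355. Of 68 such genes 0 rose and 9 fell, 21 were higher and 47 lower. The share called was 13.2%, against 6.41% of all probe sets and 11.0% of those at or above the median signal, where all 68 lie, and 5.31% of these brighter probe sets fell. COX7B, a subunit of cytochrome c oxidase, had 10.58 and 10.55 in shDROSHA, against 10.97 and 10.97 in shNC (-0.41, SE 0.049, adjusted p = 0.000283). NDUFV3 of complex I fell by 0.23 (adjusted p = 0.0131). The count of 9 was 2 with each array centred on its median, where the median was -0.0442, and when 1 array was left out it was 1 (shNC replicate 2), 4 (shNC replicate 1), 5 (shDROSHA replicate 2) or 13 (shDROSHA replicate 1). Of 55 cytosolic ribosomal protein genes 3.64% were called, against 6.41% of all probe sets and 11.0% of the brighter ones. The 2 that rose were RPL22L1 (0.62, adjusted p = 6.8e-05) and RPL7L1 (0.31, adjusted p = 0.00877), both paralogs of ribosomal proteins. Of the 55 genes 0 fell, and their median was 0.0245. Over the alternatives that median ran from 0.000554 (quantiles normalized again) to 0.0576 (centred arrays), and with 1 array left out from 0.0068 (shNC replicate 1) to 0.0514 (shNC replicate 2). The number that rose was 1 without shNC replicate 1, 5 without shDROSHA replicate 1, 3 with centred arrays and 4 with the replicate number as a block, where 1 fell. With a constant prior variance 0 genes of any of these related lists were called. The difference between these lists and the mitochondrial ribosomal proteins was not tested.

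**Figure D5:**
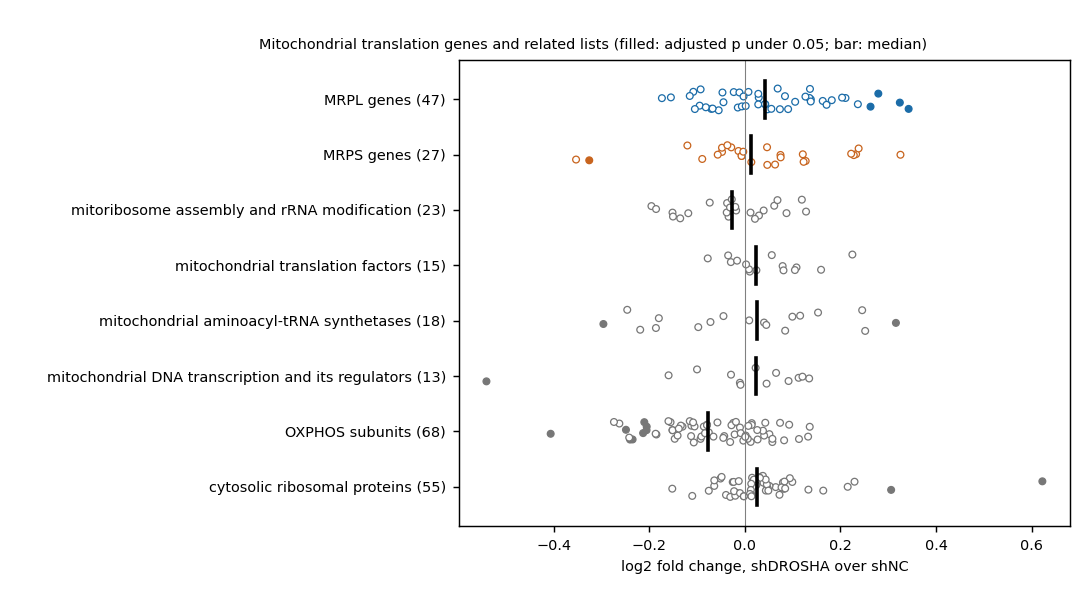
Log2 fold change, shDROSHA over shNC, of each gene (points; filled where the adjusted p was under 0.05) in the MRPL and MRPS groups and in 6 related lists, with the median of each (bars) and the number of genes in brackets. The medians of all groups lie within 0.1 of 0, and that of the oxidative phosphorylation (OXPHOS) subunits is the lowest at -0.0773.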

How the data were processed

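Total RNA of 4 MDA-MB-231 cultures was measured on Affymetrix whole-transcript arrays. The authors deposited log2 values, 1 for each probe set and array, made with RMA per the submitters' processing notes. RMA subtracts background, equalises quantiles across arrays and combines the probes of a set. RMA gives arrays nearly the same distribution, so a change shared by most mRNAs would not be seen. Its version, the genome build and any filter: not given in the sources used here. No detection calls were used, and the number of arrays limits the precision.

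The platform annotation named 15886 of 18603 probe sets with 1 gene each and 2717 with none, and symbols outside the family were updated by Entrez identifier to RefSeq (GRCh38.p14). limma 3.58.1 in R 4.3.3 (lmFit, eBayes with trend) compared shDROSHA with shNC on the log2 values of all 4 arrays. Adjusted p-values are Benjamini-Hochberg over all probe sets, and SEs and 95% intervals come from that fit. The prior had 11.9 degrees of freedom, added to 2 residual ones. The trend was used because spread within groups depended on brightness (residual SD 0.067 in the brightest of 5 bins, 0.213 in the dimmest). A constant prior was an alternative, as were a robust prior, filters on dim probe sets, further normalization, a replicate block, other thresholds and leaving out each array. The fits were also run on simulated data whose spread followed signal, as the trended prior assumes, so that run cannot choose between the priors.

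The members, the lists, the rule for named genes and the choice of the trend were made with earlier results of these data known. Named were DROSHA, every called member, per subunit the 4 smallest p and the 2 highest and lowest changes, members of ambiguous symbol or place, the brightest and dimmest member, up to 4 genes per related list by p, and the regulators given. Others were added to describe a place. MRPL45, MRPL53, MRPS6, MRPS36 and AURKAIP1 had no named probe set and were not analysed here. Same-numbered arrays' deviations correlated at -0.0218, so the numbers were not taken to pair the cultures.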

Additional observations from a re-analysis of the deposited data

How the results depend on the processing

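The count of 5 members was 5 to 7 with a robust prior, filters on dim probe sets, 1 probe set per gene, centred arrays, or quantile normalization again. It was 0 with a constant prior (8 at unadjusted p under 0.05 in limma), 10 at adjusted p 0.10 and 0 at 1.5-fold or more. The count also changed with each array left out in turn. Over the whole array 1192 probe sets became 1 with a constant prior, 1824 at adjusted p 0.10, 245 at 1.5-fold and 535 to 1949 without 1 array (535 lacking shNC replicate 1, 748 lacking shNC replicate 2, 1949 lacking shDROSHA replicate 1). With the replicate number as a block the counts were 6 members and 1391 probe sets; MRPS7 then passed (adjusted p = 0.0243), and the shared numbers are no evidence of pairing.

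The large-subunit median was 0.0751 with centred arrays and 0.0238 to 0.065 without 1 array. The small-subunit median was 0.0465 with centred arrays, 0.0299 without members below the median signal, 0.0297 as a mean and 0.0135 main, with 0.0139 to 0.0434 without 1 array. Their difference was 0.0124 without dim members and 0.0034 to 0.0218 without 1 array. The looser threshold and the fold minimum act by construction; for the rest, the cause was not tested. Averaging probe sets per gene could not differ, as each member had 1. Over 53 named genes and 12 alternatives, 552 values kept direction and call, 34 lost a call, 30 gained one and 17 turned sign, all among genes not called. With single arrays left out, the turned values ranged from -0.339 to 0.029 for MRPL14, -0.0366 to 0.0099 for MRPS18A, -0.0259 to 0.0408 for MRPL57, -0.0005 to 0.0585 for MRPL51, -0.0346 to 0.06 for CHCHD1, -0.117 to 0.0275 for PTCD3, -0.127 to 0.108 for NRF1 and -0.0831 to 0.128 for GABPA. With centred arrays MRPS18A was 0.0197 and NRF1 0.0239, and with quantile normalization again MRPL51 was -0.0116 and NRF1 0.0224.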
